A study of Mus musculus with 21 samples.

Results

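The genes described here are the chemokines and the chemokine receptors of the mouse, measured by RNA sequencing of sorted retinal ganglion cell samples after optic nerve injury. They were taken by name, as the rows of the count table whose symbol begins with Ccl, Cxcl, Ccr, Cxcr, Xcl, Xcr or Ackr followed by a number, and they came to 49 of 17164 genes. Of these, 29 encode ligands (17 Ccl, 11 Cxcl and 1 Xcl gene), 16 encode signalling receptors (10 Ccr, 5 Cxcr and 1 Xcr gene) and 4 encode atypical receptors (Ackr1 to Ackr4). All 49 genes passed the filter on low counts, which left 16797 genes for testing, and 36 of the 49 differed between groups in at least 1 of the 7 comparisons made. Of all genes tested, 2.26% to 33.5% differed in a single comparison, and the share differing in at least 1 of the 7 was not counted. All samples came from C57BL/6 mice aged 6 to 7 weeks whose optic nerve had been crushed 3 days earlier, and no uninjured group was analysed here. The groups were a control (4 libraries, labelled as wild-type control) and guide RNA knockouts of the transcription factors ATF3 (5 libraries), ATF4 (2), CEBPG (4) and CHOP, the product of the gene Ddit3 (5). Retinas were dissociated with papain, the cells were sorted by flow cytometry, and full-length cDNA was made from their RNA. Delivery of the guides, the gate of the sort and whether libraries came from separate animals are not stated in these sources. The spread that the p-values rest on is that between libraries, and it may be technical in part. A further library, titled as control but with the genotype of a CHOP knockout, entered no comparison.

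The control libraries were male and from batch 2, the ATF4 libraries were 1 female and 1 male from batch 1, and the ATF3, CEBPG and CHOP libraries were all female and from batch 3. Knockout against control therefore cannot be told apart from batch and, except in part for ATF4, from sex, while the ATF3, CEBPG and CHOP groups share both. The counted reads ranged from 6401446 to 11752828 in control, 25267560 to 32776378 in ATF3, 11929692 to 12404601 in ATF4, 9000250 to 29810987 in CEBPG and 14272784 to 31543917 in CHOP libraries. The targeted transcripts were lower than in control in 3 of the 4 knockouts, with log2 fold changes of -1.56 for Atf3, -0.97 for Atf4 and -0.43 for Ddit3, and -0.16 for Cebpg (adjusted p = 0.491). These falls were not particular to the targeted group. Atf3 was at 30.6 to 48.0 CPM in ATF3 and 22.5 to 55.0 CPM in CHOP libraries. Ddit3 was at 57.4 to 72.6 CPM in CHOP and 57.5 to 64.8 CPM in ATF3 libraries. Atf4 was at 148 to 160 CPM in ATF4 and lower, at 77.7 to 98.3 CPM, in ATF3 libraries. A small edit need not lower its transcript, and such values are no check of a label. CEBPG replicates 6 and 8 stood apart on the fourth principal component (7.01% of the variance), at -99.3 and 102 against -14.8 to 7.85 for the other 18 libraries, so counts resting on that group are also given without them. Summed over 12 ganglion cell marker genes, the level was 565 to 785 CPM (read counts scaled to a common library size) over the group means, and Pou4f2 was at 0 in all 4 CEBPG libraries. Markers of other retinal cells were also read: 10 Müller glia markers summed to 7067 to 12852 CPM, 15 microglia markers to 4344 to 6601 CPM, and 6 rod markers to 33781 CPM in control against 2735 to 5562 CPM in the knockouts. In such bulk samples, fewer cells of a type and less RNA per cell cannot be told apart, and a chemokine transcript is not tied to the ganglion cells.

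Chemokines are small secreted proteins that steer the migration of leukocytes, and each binds one or a few G protein-coupled receptors on the cells it attracts. The Ccl and Cxcl families are named for the spacing of their first cysteines, and several ligands share a receptor (CXCL9 and CXCL10 with CXCR3, CCL2, CCL7 and CCL12 with CCR2). In the retina, microglia, Müller glia and incoming myeloid cells are known sources of inflammatory chemokines after injury, while most of the receptors are best known from T cells, natural killer cells, monocytes and dendritic cells. The atypical receptors bind chemokines without G protein signalling and remove or present them.

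Promoter sequence was available from RefSeq (GRCm38.p6) for 36 of the 49 genes (20 ligands and 16 receptors, the atypical ones included), as windows from 250 bases before to 50 after the annotated start. Both strands were searched for binding sequences of the targeted factors, of AP-1, and of NF-kB and the interferon-regulated factors, which are known activators of many chemokine genes. TGATGNAA, the composite element of ATF4 and a C/EBP partner, was present in 1 of 36 (Ccl27a) and in 4.51% of all 27025 genes with such a window. TGACGTCA, the full cyclic AMP element that ATF3 and ATF4 can bind, was present in 0 of 36 and in 2.03% of all genes, and the C/EBP palindrome TTGCGCAA in 0 of 36 and 0.207%. TGANTCA, the AP-1 element, was present in 7 of 36 against 8.97%. The NF-kB motif was present in 9 of 36 against 5.14%, and the interferon element GAAANNGAAA in 2 of 36 (Cxcl10 and Cxcl14) against 3.99%. The motifs can overlap one another, a match is a description of letters and not a bound site, and a missing match says only that these letters are not in the window.

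The 250 bases before the start are shown for 4 genes among those with the smallest adjusted p, 3 ligands and 1 receptor that illustrate the directions seen, written 5′ to 3′ on the strand of the gene with the matched motifs in capitals. Cxcl14 (chr13:56296552-56296801, minus strand) rose in all 4 knockouts and holds 1 interferon element. Cxcl10 (chr5:92348890-92349139, minus strand), which fell in the ATF3 and CHOP groups, holds 1 interferon element, 2 NF-kB motifs and 1 AP-1 element. Ccl8 (chr11:82114935-82115184, plus strand), which rose in CEBPG and fell in ATF3 and CHOP, and Cxcr6 (chr9:123806227-123806476, plus strand), a receptor that rose in all 4, hold none of the 6 motifs.
Cxcl14: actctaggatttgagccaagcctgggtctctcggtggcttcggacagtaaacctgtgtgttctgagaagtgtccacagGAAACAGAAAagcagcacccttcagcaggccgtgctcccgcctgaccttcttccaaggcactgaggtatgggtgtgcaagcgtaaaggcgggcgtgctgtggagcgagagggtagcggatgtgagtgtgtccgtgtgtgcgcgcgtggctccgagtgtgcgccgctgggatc
Cxcl10: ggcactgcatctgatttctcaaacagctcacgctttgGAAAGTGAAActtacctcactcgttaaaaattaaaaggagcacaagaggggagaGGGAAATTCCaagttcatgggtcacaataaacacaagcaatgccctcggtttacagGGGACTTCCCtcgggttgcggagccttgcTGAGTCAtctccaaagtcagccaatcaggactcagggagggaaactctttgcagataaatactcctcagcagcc
Ccl8: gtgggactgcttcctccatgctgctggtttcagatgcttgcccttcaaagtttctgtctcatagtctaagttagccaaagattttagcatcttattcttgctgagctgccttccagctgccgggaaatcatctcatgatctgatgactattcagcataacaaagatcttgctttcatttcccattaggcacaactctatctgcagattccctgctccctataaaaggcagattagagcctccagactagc
Cxcr6: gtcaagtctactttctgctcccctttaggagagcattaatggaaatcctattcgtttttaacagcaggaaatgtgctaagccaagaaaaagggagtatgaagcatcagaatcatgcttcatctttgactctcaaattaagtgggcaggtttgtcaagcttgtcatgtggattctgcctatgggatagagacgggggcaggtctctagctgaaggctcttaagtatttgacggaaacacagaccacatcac

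Levels are given as CPM, with library sizes scaled by the trimmed mean of M values, and the values of a group stand in the order of the replicate numbers (control 4, 5, 7 and 8, ATF3 5 to 9, ATF4 1 and 3, CEBPG 6, 8, 9 and 10, CHOP 1 to 5). A library is named by its group and that number. To compare genes with each other, CPM was divided by exon length (CPM per kilobase). On that scale Ccl12, a monocyte attractant that binds CCR2, was the highest of the 49 genes in the control group (339.6 ± 115, SD, n = 4) and in the CEBPG group (392 ± 63.7, SD, n = 4). It did not pass the test in any of the 7 comparisons. In the CEBPG group Cxcr6, a receptor, came next at 308 ± 62.5 per kilobase, ahead of Ccl4 (167 ± 28.7), Ccl8 (158 ± 47.6), Cxcl14 (147 ± 6.04) and Ccl5 (128 ± 34.9). The means of Ccl4, Ccl8 and Cxcl14 differed by less than the SD of Ccl4. In the control group Cxcr6 stood at 0.805 ± 0.374 per kilobase.

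Summed over the 16 receptors, the level was 55.2 ± 21.1 CPM in control (SD, n = 4), 312 ± 22.1 in ATF3 (n = 5), 39.1 ± 26.9 in ATF4 (n = 2), 1069 ± 165 in CEBPG (n = 4) and 235 ± 45 in CHOP (n = 5). The control and ATF4 libraries overlapped, and each library of ATF3, CEBPG and CHOP stood above all of them. Summed over the 29 ligands, the level was 785 ± 157 CPM in control, 834 ± 50.8 in ATF3, 1230.0 ± 47.8 in ATF4, 1499 ± 80.4 in CEBPG and 927 ± 158 in CHOP, so the ligand sums spanned a narrower range than the receptor sums. Markers of T and natural killer cells, summed over the 18 measured of 20 listed genes, rose like the receptors from 15.2 CPM in control to 2209.5 CPM in CEBPG. In ATF4 the mean of these markers was above control, at 45.9 CPM, while that of the receptors was below it. ATF4 replicate 3, at 19.1 CPM, lay within the control range of the markers. The part of these markers in the result was not tested. The make-up of the receptor sum changed as well: Cxcr6 was 2.8% of it in control and 55.7% in CEBPG. Of the ligand sum, Ccl5 was 1.7% in control and 8.2% in CEBPG, Cxcl14 14.3% and 18.0%, and Ccl12 23.2% and 14.1%.

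**Figure D1:**
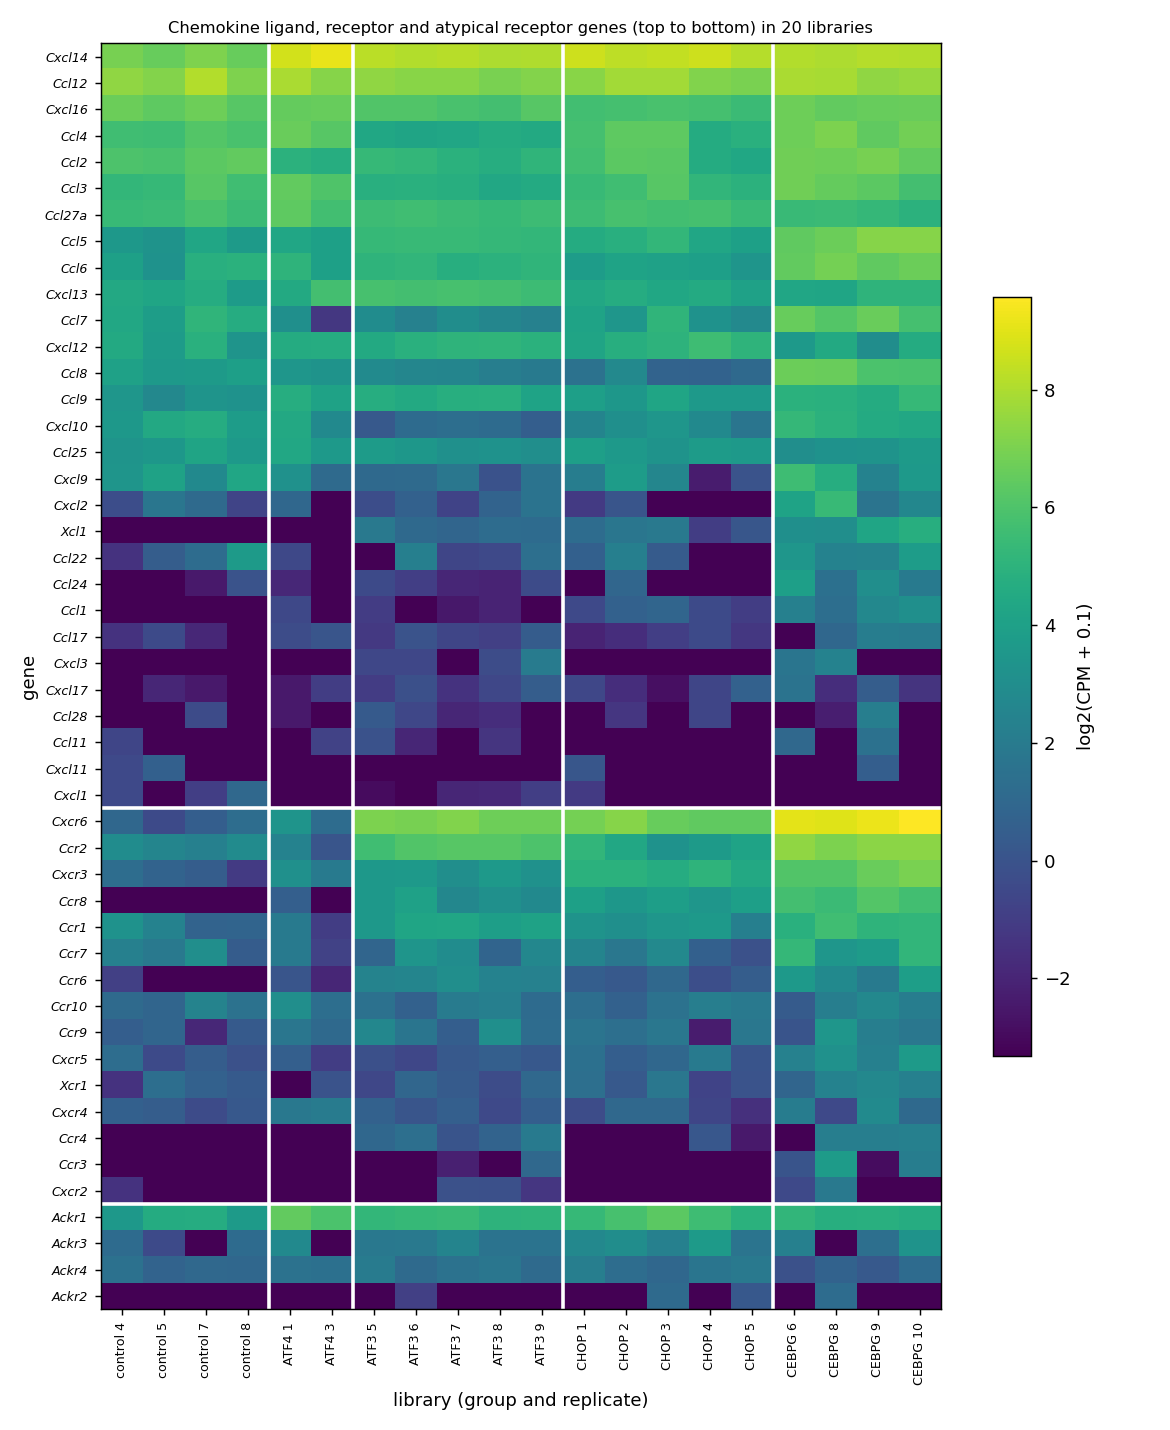
Level of 48 of the genes in the 20 libraries as log2(CPM + 0.1), with ligands at the top, then receptors and atypical receptors, each ordered by mean level, and libraries in columns by group. Dark cells are low and yellow cells high: rows such as Cxcr6, Cxcr3 and Ccr8 are dark in the control columns and brightest in the 4 CEBPG columns, where Cxcr6 reached 766 CPM against at most 2.32 CPM in control.

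Against control, a gene was counted as higher or lower at an adjusted p under 0.05 in edgeR's quasi-likelihood test, fitted to all 20 libraries and adjusted over all genes tested. Log2 fold changes are given ± their standard error (SE). The background was high, at 33.4% of all genes called in the ATF3 comparison, 31.3% in ATF4, 33.4% in CEBPG and 33.5% in CHOP. In the ATF3 comparison 14 of the 49 genes were higher and 8 lower (all genes 18.6% and 14.8%), with 5 ligands higher and 8 lower, 8 receptors higher and 0 lower, and 1 atypical receptor higher. In the ATF4 comparison 7 were higher and 3 lower (all genes 16.6% and 14.6%), 3 ligands, 3 receptors and 1 atypical receptor among the higher ones and 2 ligands and 1 receptor among the lower ones. In the CEBPG comparison 26 were higher and 1 lower (all genes 18.3% and 15%), with 15 ligands and 11 receptors higher and 1 ligand lower. In the CHOP comparison 11 were higher and 3 lower (all genes 18.1% and 15.4%), 5 ligands, 5 receptors and 1 atypical receptor among the higher and 3 ligands among the lower. Without CEBPG replicates 6 and 8, 20 genes were higher against control, 19 of them among the 26, and 0 were lower, where 31% of all genes were called.

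Against control, receptor calls were mostly higher. Ligand calls went in both directions in ATF3, ATF4 and CHOP, while in CEBPG 15 were higher and the 1 lower, Cxcl1, was lost without CEBPG replicates 6 and 8. In ATF4 and CHOP, 10 and 14 of the 49 genes were called, shares below the 31.3% and 33.5% of all genes. The 3 of 16 receptors higher in ATF4 were near the 16.6% of all genes, and the 5 of 16 in CHOP were above 18.1%. In the ATF3 comparison the median log2 fold change of the 29 ligands was -0.06 and that of the 16 receptors 2.16, beside 0.06 over all genes, and with genes at 0 in 1 group set to their bound (3 reads summed over that group) the medians were -0.35 and 0.71. In CEBPG they were 1.27 and 3.40 (0.74 and 2.32 with bounds) beside 0.06, in CHOP -0.04 and 0.88 (-0.08 and 0.42) beside 0.01, and in ATF4 0.11 and 0 (0 and 0) beside 0. The 4 comparisons share the control libraries, so they are not independent of each other. The genes called higher in all 4 were Ccl9, Cxcl14, Ccr8, Cxcr3 and Cxcr6, those in 3 of the 4 were Ccl5, Xcl1, Ccr2, Ccr6 and Ackr1, and 16 genes were called in none. How many of all genes showed each of these patterns was not counted.

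Among the receptors, Cxcr6, the receptor of CXCL16 and a marker of tissue-resident T and natural killer cells, had the widest change of those read in every group. Cxcr6 was measured at 1.89, 0.648, 1.36 and 2.32 CPM in control, 130.4, 121, 139, 106 and 106 in ATF3 and 10.1 and 2.27 in ATF4. CEBPG libraries gave 532, 493, 591 and 766 CPM and CHOP libraries 120.1, 153, 96.1, 84.9 and 86.1 CPM. ATF3, CEBPG and CHOP libraries did not overlap with control, and ATF4 replicate 3 lay close to the highest control library. The log2 fold change against control was 6.19 ± 0.35 (adjusted p = 3.57e-12) in ATF3 and 8.50 ± 0.37 (adjusted p = 9.21e-14) in CEBPG. In CHOP it was 6.03 ± 0.35 (adjusted p = 1.20e-11). The ATF4 value was far smaller, 1.89 ± 0.43 (adjusted p = 0.00165), and that call was lost on leaving out ATF4 1 (adjusted p = 0.556) and with only the groups compared in the fit (adjusted p = 0.0922). Without ATF4 3 it was 2.61. Within the shared batch, Cxcr6 was lower in ATF3 than in CEBPG (-2.31 ± 0.24, adjusted p = 3.83e-07) and higher in CEBPG than in CHOP (2.46 ± 0.24, adjusted p = 9.96e-08), whereas ATF3 and CHOP differed by 0.16 (± 0.22, adjusted p = 0.887). The gene (chromosome 9, 123806475 to 123811760, plus strand) lies within Fyco1 without sharing exon bases, and Fyco1 fell in all 4, with log2 fold changes from -2.13 to -1.48 against control.

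Cxcr3, the receptor of the interferon-induced ligands CXCL9 to CXCL11 on activated T cells, was the only one of the 49 genes called in all 7 comparisons. Cxcr3 was measured at 2.34, 1.62, 1.28 and 0.357 CPM in control, 11.8, 12.7, 8.28, 12.4 and 9.15 in ATF3 and 8.67 and 3.89 in ATF4. CEBPG libraries gave 66.7, 67.6, 97.8 and 128 CPM and CHOP libraries 30.3, 30.6, 25.5, 33.1 and 22.1 CPM. The order from control through ATF4 and ATF3 to CHOP and CEBPG was without overlap between neighbours, except for ATF4 replicate 1, which lay among the ATF3 libraries. Against control the log2 fold change was 2.97 ± 0.35 (adjusted p = 5.85e-07) in ATF3, 6.02 ± 0.39 (adjusted p = 2.21e-11) in CEBPG and 4.35 ± 0.36 (adjusted p = 2.49e-09) in CHOP. For ATF4 it was 2.18 ± 0.42 (adjusted p = 0.000335), which was lost with only the groups compared in the fit (adjusted p = 0.068) and was 1.49 without ATF4 1. Within the batch it was -1.38 ± 0.27 (adjusted p = 0.00416) for ATF3 against CHOP. CEBPG exceeded both, by 1.67 ± 0.28 (adjusted p = 8.30e-05) over CHOP, and ATF3 against CEBPG gave -3.05 ± 0.29 (adjusted p = 1.07e-07). Cxcr3 is X-linked (chromosome X, 101731535 to 101734269, minus strand), and the control libraries were all male and the ATF3, CEBPG and CHOP libraries all female, with 1 of each in ATF4. Sex and knockout cannot be told apart against control.

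Ccr8, the receptor of CCL1 and of mouse CCL8 on regulatory and type-2 T cells (chromosome 9, 120092114 to 120094906, plus strand), had 0 reads in all 4 control libraries. Ccr8 was measured at 0, 0, 0 and 0 CPM in control, 11.6, 16.6, 6.23, 8.77 and 7.0 in ATF3 and 1.39 and 0 in ATF4. CEBPG libraries gave 53.6, 43.7, 71 and 50.6 CPM and CHOP libraries 15.8, 11.2, 15.2, 10.7 and 15.7 CPM. Against a floor of 3 reads over the control group, Ccr8 was at least 134.7-fold higher in ATF3 (adjusted p = 6.42e-08), at least 733.9-fold in CEBPG (adjusted p = 8.41e-10) and at least 184.1-fold in CHOP (adjusted p = 2.58e-08). In ATF4 the bound of 9.31-fold (adjusted p = 0.00352) rested on replicate 1, since the other library had 0 reads, and without that library the adjusted p was 1. Within the batch, CEBPG exceeded CHOP by 2.00 ± 0.38 (adjusted p = 0.000583). ATF3 was below CEBPG by a log2 fold change of -2.44 ± 0.39 (adjusted p = 0.000124).

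Ccr2, which brings inflammatory monocytes into tissue as the receptor of CCL2, CCL7 and CCL12 (chromosome 9, 124101950 to 124113557, plus strand), separated the knockouts from one another. Ccr2 was measured at 7.65, 5.83, 4.85 and 7.50 CPM in control, 49.8, 66.4, 75.6, 74.4 and 61.9 in ATF3 and 5.20 and 0.973 in ATF4. CEBPG libraries gave 173, 133, 165 and 162 CPM and CHOP libraries 36.4, 21.6, 9.31, 13 and 17.8 CPM. The ATF3, CEBPG and CHOP libraries all lay above control, and the 2 ATF4 libraries at or below it. The log2 fold change against control was 3.34 ± 0.36 (adjusted p = 1.03e-07) in ATF3 and 4.61 ± 0.38 (adjusted p = 1.20e-09) in CEBPG. In CHOP it was smaller, 1.59 ± 0.34 (adjusted p = 0.000732), and in ATF4 it was -1.08 ± 0.49 (adjusted p = 0.101). The ATF4 value passed as lower on leaving out ATF4 1 (adjusted p = 0.0061) and with DESeq2 (adjusted p = 0.0356). Ccr2 was 1 of the 6 genes of the 49 called between ATF3 and CHOP (1.75 ± 0.29, adjusted p = 0.00105), where 2.26% of all genes were called. It was lower in ATF3 than in CEBPG (-1.27 ± 0.30, adjusted p = 0.00346) and higher in CEBPG than in CHOP (3.02 ± 0.31, adjusted p = 2.36e-07).

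**Figure D2:**
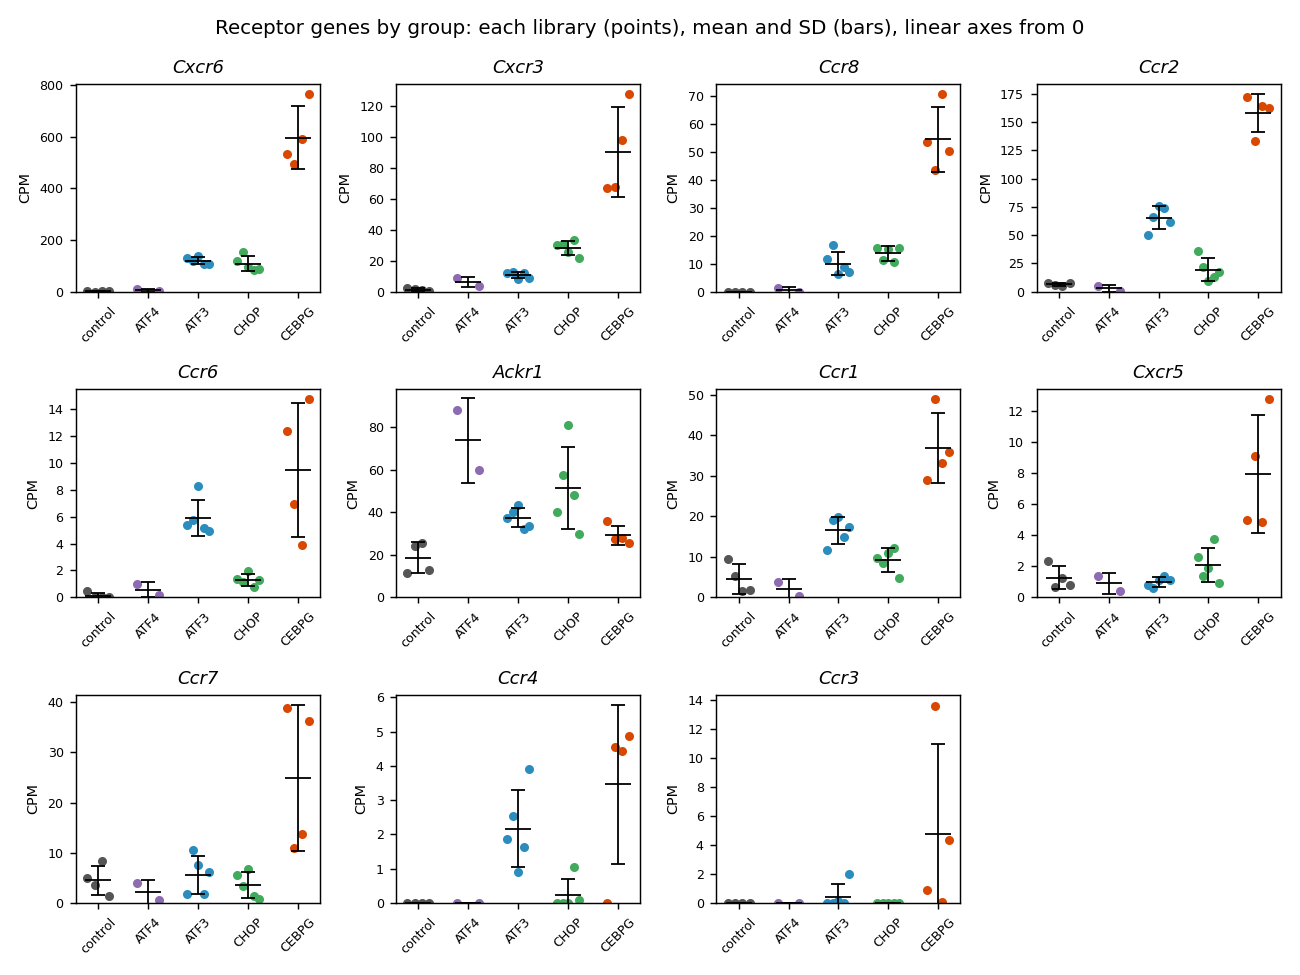
CPM of 11 receptor genes named by rule in each library, 1 panel per gene with a linear axis from 0, by group, with points for libraries and bars for the mean and SD. CEBPG libraries are the highest in most panels, and the Ccr8, Ccr4 and Ccr3 control libraries lie at 0.

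Ccr1, which binds CCL3, CCL5, CCL6 and CCL9 on myeloid cells, was measured at 9.45, 5.18, 1.62 and 1.70 CPM in control, 11.6, 19.1, 19.8, 14.9 and 17.2 in ATF3, 3.82 and 0.406 in ATF4 and 28.9, 49, 33.3 and 36 in CEBPG. It rose in ATF3 (1.89 ± 0.48, adjusted p = 0.00362) and CEBPG (3.04 ± 0.51, adjusted p = 5.44e-05) without overlap with control. Its values of 9.80, 8.47, 10.9, 12.2 and 4.70 CPM in CHOP (1.04 ± 0.47, adjusted p = 0.0939) overlapped with control, and the difference passed on leaving out control 4 (adjusted p = 0.00771). Without control replicate 4, its highest control library, the log2 fold change was 2.61 in ATF3 and 3.77 in CEBPG. In ATF4 it was -1.09 ± 0.66 (adjusted p = 0.229), and passed as lower on leaving out ATF4 1 (adjusted p = 0.0149).

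Ccr6, the receptor of CCL20 on interleukin-17-producing T cells and B cells, was near 0 in control. Ccr6 was measured at 0.45, 0, 0 and 0 CPM in control, 5.38, 5.76, 8.28, 5.16 and 4.93 in ATF3 and 0.954 and 0.162 in ATF4. CEBPG libraries gave 12.4, 6.97, 3.86 and 14.8 CPM and CHOP libraries 1.33, 1.13, 1.94, 0.748 and 1.29 CPM. It rose in ATF3 (5.53 ± 0.88, adjusted p = 2.91e-05), in CEBPG (6.21 ± 0.91, adjusted p = 8.73e-06) and in CHOP (3.34 ± 0.85, adjusted p = 0.00347), with no overlap with control in any of them. The size of these changes rests on 5 reads in control replicate 4, since the other 3 control libraries had 0. Without it Ccr6 was at least 57.3-fold higher in ATF3, at least 92.1-fold in CEBPG and at least 12.5-fold in CHOP. The fitted log2 fold changes then were 9.91, 10.60 and 7.72, which depend on how the fit treats 0 reads. The ATF4 value was 2.14 ± 1.03 (adjusted p = 0.121) and passed on leaving out control 4 (adjusted p = 0.00248). Between ATF3 and CHOP the libraries did not overlap and the log2 fold change was 2.19 ± 0.62 (adjusted p = 0.0662), which passed with only the groups compared in the fit (adjusted p = 0.00167) and with DESeq2 (adjusted p = 0.000948). CEBPG exceeded CHOP by 2.87 ± 0.65 (adjusted p = 0.00207).

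Ccr4, found on skin-homing and type-2 helper T cells as the receptor of CCL17 and CCL22, had 0 reads in the control and ATF4 libraries. It was measured at 1.87, 2.53, 0.907, 1.64 and 3.91 CPM in ATF3, 0, 4.55, 4.43 and 4.87 in CEBPG and 0, 0, 0, 1.05 and 0.0832 in CHOP, so that 1 CEBPG library and 3 CHOP libraries were at 0 as well. Against the floor of control it was at least 29.1-fold higher in ATF3 (adjusted p = 0.00851) and at least 46.5-fold in CEBPG (adjusted p = 0.0054). CEBPG exceeded CHOP (3.92 ± 1.42, adjusted p = 0.0472), a call lost on leaving out any one of CEBPG 8, CEBPG 9, CEBPG 10, CHOP 1, CHOP 2, CHOP 3 and CHOP 5 (adjusted p = 0.0721 to 0.0937) and with only the groups compared in the fit (adjusted p = 0.103), and the log2 fold change was 6.98 without CHOP 4. Ccr3, the eosinophil receptor of CCL11 and CCL24, was at 0 in control, ATF4 and CHOP and at 0.912, 13.6, 0.0333 and 4.30 CPM in CEBPG, uneven between libraries. It was at least 63.2-fold higher in CEBPG than in control (adjusted p = 0.0234), a call lost on leaving out CEBPG 8 or control 8 (adjusted p = 0.0517 and 0.0614), with DESeq2 (adjusted p = 0.0806) and in the fit lacking both CEBPG 6 and CEBPG 8 (adjusted p = 0.0695). Against CHOP it was at least 179.0-fold higher (adjusted p = 0.0096), and at least 66.4-fold without CEBPG 8.

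Ccr7, which guides dendritic cells and naive T cells to lymph nodes, rose in CEBPG, and the other comparisons with control did not pass. Ccr7 was measured at 4.86, 3.56, 8.25 and 1.25 CPM in control, 1.77, 10.6, 7.53, 1.67 and 6.18 in ATF3 and 3.90 and 0.487 in ATF4. CEBPG libraries gave 38.8, 11, 13.7 and 36.3 CPM and CHOP libraries 5.46, 3.42, 6.74, 1.45 and 0.832 CPM. The log2 fold change in CEBPG was 2.47 ± 0.73 (adjusted p = 0.0114), and the ATF3 value of 0.30 (adjusted p = 0.775) did not pass. CEBPG was above CHOP (2.80 ± 0.68, adjusted p = 0.00348) and above ATF3, which gave -2.16 ± 0.66 (adjusted p = 0.0222). The ATF3 call was lost on leaving out any one of ATF3 5, ATF3 8, CEBPG 6 and CEBPG 10 (adjusted p = 0.0566 to 0.0725) and in the fit lacking both CEBPG 6 and CEBPG 8 (adjusted p = 0.0615). Cxcr5, the follicular homing receptor that binds CXCL13, was measured at 2.34, 0.648, 1.28 and 0.804 CPM in control and 4.96, 9.11, 4.86 and 12.8 in CEBPG, where it rose by 2.63 ± 0.67 (adjusted p = 0.00353). It exceeded ATF3 (ATF3 against CEBPG -2.99 ± 0.62, adjusted p = 0.00108) and CHOP (1.92 ± 0.60, adjusted p = 0.0192). The latter call was lost on leaving out CEBPG 10 (adjusted p = 0.0833).

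The other receptors were low or did not pass. Cxcr2, the neutrophil receptor of CXCL1 to CXCL3, was at 0 in ATF4 and CHOP and in 3 of 4 control libraries, and reached 0.608, 3.60, 0 and 0 CPM in CEBPG. It passed only for CEBPG against CHOP, at least 39.9-fold (adjusted p = 0.0248), a call lost on leaving out CEBPG 8 (adjusted p = 0.121) and in the fit lacking both CEBPG 6 and CEBPG 8 (adjusted p = 1). Cxcr4, the receptor of CXCL12, ranged from 0.25 to 7.12 CPM over the 20 libraries and passed in no comparison, nor did Ccr9, a gut-homing receptor, Ccr10, a skin-homing receptor, and Xcr1, the receptor of XCL1 on cross-presenting dendritic cells.

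Of the atypical receptors, Ackr1, the Duffy antigen that carries chemokines across venular endothelium (chromosome 1, 173331886 to 173333750, minus strand), was measured at 11.5, 24.3, 25.4 and 13 CPM in control, 37.5, 40.3, 43.2, 32.3 and 33.7 in ATF3 and 88 and 59.9 in ATF4. CEBPG libraries gave 35.9, 27.6, 27.9 and 25.7 CPM and CHOP libraries 40.3, 57.6, 81, 48.1 and 29.9 CPM. All knockout libraries exceeded all control libraries. It rose in ATF3 (1.02 ± 0.26, adjusted p = 0.00372), ATF4 (2.00 ± 0.32, adjusted p = 3.49e-05) and CHOP (1.48 ± 0.26, adjusted p = 0.000109). In CEBPG it was 0.66 ± 0.27 (adjusted p = 0.064) and passed on leaving out control 7 (adjusted p = 0.0254). Ackr1 was lower in CEBPG than in CHOP (-0.82 ± 0.25, adjusted p = 0.0195). That call was lost on leaving out CEBPG 10 or CHOP 3 (adjusted p = 0.0572 and 0.0821), with only the groups compared in the fit (adjusted p = 0.0529) and in the fit lacking both CEBPG 6 and CEBPG 8 (adjusted p = 0.0515). It shares 361 exon bases, 25.7% of its own, with Cadm3 on the same strand, a neuronal adhesion gene that rose in all 4 comparisons with control, by 1.07, 1.32, 0.69 and 1.22 (ATF3, ATF4, CEBPG, CHOP), so the counts of Ackr1 are uncertain. Ackr2, Ackr3 and Ackr4 passed in no comparison.

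Among the ligands, Cxcl14, a constitutively made chemokine of epithelia and neurons (chromosome 13, 56288643 to 56296551, minus strand), rose in all 4 knockouts. Cxcl14 was measured at 121, 95.7, 135 and 95.1 CPM in control, 305, 274, 291, 254 and 262 in ATF3 and 418 and 571 in ATF4. CEBPG libraries gave 270.2, 254, 281 and 272 CPM and CHOP libraries 387, 316, 341, 383 and 286 CPM. No knockout library overlapped with control. The log2 fold change was 1.31 ± 0.12 (adjusted p = 1.82e-08) in ATF3, 2.14 ± 0.15 (adjusted p = 2.54e-09) in ATF4, 1.27 ± 0.13 (adjusted p = 4.29e-08) in CEBPG and 1.61 ± 0.13 (adjusted p = 8.63e-10) in CHOP. ATF3 and CEBPG differed by 0.04 (adjusted p = 0.845). CEBPG was below CHOP with a log2 fold change of -0.35 ± 0.12 (adjusted p = 0.035), a call lost on leaving out any one of CEBPG 6, CEBPG 8, CEBPG 9, CEBPG 10, CHOP 1, CHOP 3 and CHOP 4 (adjusted p = 0.0537 to 0.0939), with only the groups compared in the fit (adjusted p = 0.0612) and in the fit lacking both CEBPG 6 and CEBPG 8 (adjusted p = 0.205).

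Ccl5, made by T cells, natural killer cells and activated microglia and a ligand of CCR1 and CCR3 (chromosome 11, 83525778 to 83530518, minus strand), rose in 3 knockouts. Ccl5 was measured at 11.8, 9.72, 19.8 and 13 CPM in control, 40.6, 40.8, 40.9, 38.8 and 36.8 in ATF3 and 19.7 and 16 in ATF4. CEBPG libraries gave 86.5, 103, 150.3 and 153 CPM and CHOP libraries 24.1, 28.5, 36.8, 20.01 and 16.1 CPM. Against control, its log2 fold change was 1.53 ± 0.23 (adjusted p = 1.83e-05) in ATF3, 3.17 ± 0.25 (adjusted p = 8.41e-10) in CEBPG and 0.88 ± 0.23 (adjusted p = 0.00481) in CHOP. CHOP replicate 5 and control replicate 7 overlapped, and the ATF4 value of 0.38 (adjusted p = 0.358) did not pass. CEBPG exceeded ATF3 (ATF3 against CEBPG -1.64 ± 0.22, adjusted p = 9.86e-06) and CHOP (2.29 ± 0.22, adjusted p = 1.02e-07). Between ATF3 and CHOP it was 0.65 ± 0.21 (adjusted p = 0.114), and passed on leaving out CHOP 3 (adjusted p = 0.0295) and with only the groups compared in the fit (adjusted p = 0.0376).

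Ccl5 lies in a cluster on chromosome 11 with Ccl9, Ccl6, Ccl3 and Ccl4, and the cluster did not move as 1 block. Ccl9, a CCR1 ligand of myeloid cells, was measured at 10.7, 6.32, 10.2 and 9.38 CPM in control, 26.3, 22.4, 27.1, 28 and 17.6 in ATF3 and 26 and 17.2 in ATF4. CEBPG libraries gave 30.7, 29.5, 24.3 and 40.5 CPM and CHOP libraries 15.3, 11.3, 19.1, 12.7 and 12.1 CPM. All knockout libraries exceeded all control libraries, and the log2 fold changes were 1.40 ± 0.24 (adjusted p = 6.16e-05) (ATF3), 1.23 ± 0.29 (adjusted p = 0.002) (ATF4), 1.76 ± 0.25 (adjusted p = 5.18e-06) (CEBPG) and 0.61 ± 0.23 (adjusted p = 0.0457) (CHOP). The ATF4 call was lost on leaving out ATF4 1 (adjusted p = 0.081). The CHOP call was lost on leaving out any one of CHOP 1, CHOP 3, CHOP 4, control 5, control 7 and control 8 (adjusted p = 0.0608 to 0.181), with RLE size factors (adjusted p = 0.0586) and with only the groups compared in the fit (adjusted p = 0.0891). CEBPG exceeded CHOP (1.15 ± 0.22, adjusted p = 0.000492), and ATF3 exceeded CHOP by 0.79 ± 0.21 (adjusted p = 0.0515), which passed on leaving out ATF3 9 or CHOP 3 (adjusted p = 0.0245 and 0.038), with only the groups compared in the fit (adjusted p = 0.016) and with DESeq2 (adjusted p = 0.0129).

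Ccl6, another CCR1 ligand of macrophages, was measured at 16.3, 9.39, 28.5 and 29.8 CPM in control, 34, 36.3, 27.1, 31 and 35.1 in ATF3 and 33.8 and 16.2 in ATF4. CEBPG libraries gave 88.4, 119, 85.8 and 103 CPM and CHOP libraries 14.1, 18, 16.6, 15.3 and 10.4 CPM. It rose in CEBPG (2.22 ± 0.28, adjusted p = 1.07e-06), and the other comparisons with control did not pass. The ATF3 value was 0.63 ± 0.26 (adjusted p = 0.0672) and passed on leaving out control 7 or control 8 (adjusted p = 0.0312 and 0.0328), and the CHOP value was -0.51 ± 0.26 (adjusted p = 0.137) and passed as lower on leaving out control 5 (adjusted p = 0.0138). Within the batch it was called in all 3 comparisons, 1.13 ± 0.24 (adjusted p = 0.0101) for ATF3 against CHOP, -1.60 ± 0.25 (adjusted p = 7.02e-05) for ATF3 against CEBPG and 2.73 ± 0.26 (adjusted p = 7.96e-08) for CEBPG against CHOP.

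Ccl3 and Ccl4, ligands that microglia make early after injury, moved in opposite directions in ATF3 and CEBPG. Ccl4 was measured at 49.3, 47.8, 69.3 and 59.3 CPM in control, 20.3, 18.3, 19.6, 24.1 and 22.9 in ATF3 and 97.7 and 76.2 in ATF4. CEBPG libraries gave 106, 132, 86.3 and 116 CPM and CHOP libraries 54.3, 83.8, 84.5, 24.4 and 29.6 CPM. Ccl4 fell in ATF3 (-1.42 ± 0.27, adjusted p = 0.000217) and rose in CEBPG (0.96 ± 0.28, adjusted p = 0.0107), the latter lost in the fit lacking both CEBPG 6 and CEBPG 8 (adjusted p = 0.0566). ATF3 and CEBPG libraries did not overlap, and ATF3 was lower with a log2 fold change of -2.39 ± 0.27 (adjusted p = 1.26e-06). CEBPG exceeded CHOP by 0.99 ± 0.26 (adjusted p = 0.00711), lost in the fit lacking both CEBPG 6 and CEBPG 8 (adjusted p = 0.0529). ATF3 was below CHOP with a log2 fold change of -1.40 ± 0.26 (adjusted p = 0.00266). In CHOP against control Ccl4 stood at -0.03 (adjusted p = 0.953).

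Ccl3 was measured at 37.5, 39.4, 74.3 and 48.8 CPM in control, 28, 29.4, 27.6, 21.4 and 23.7 in ATF3 and 90.4 and 66.1 in ATF4. CEBPG libraries gave 112, 90.9, 80.9 and 52.1 CPM and CHOP libraries 41.4, 49.1, 75.2, 36.5 and 31.8 CPM. It fell in ATF3 with a log2 fold change of -0.94 ± 0.24 (adjusted p = 0.00396). The rise in CEBPG (0.74 ± 0.26, adjusted p = 0.0288) was lost on leaving out any one of CEBPG 6, CEBPG 8, control 4, control 5 and control 8 (adjusted p = 0.0703 to 0.108), with only the groups compared in the fit (adjusted p = 0.0735) and in the fit lacking both CEBPG 6 and CEBPG 8 (adjusted p = 0.274). ATF3 was below CEBPG (-1.69 ± 0.24, adjusted p = 2.36e-05), and CEBPG above CHOP (0.84 ± 0.24, adjusted p = 0.0115), the latter lost on leaving out CEBPG 6 (adjusted p = 0.0537) and in the fit lacking both CEBPG 6 and CEBPG 8 (adjusted p = 0.185). The ATF3 value against CHOP of -0.85 ± 0.23 (adjusted p = 0.0524) passed on leaving out CHOP 5 (adjusted p = 0.0362), with only the groups compared in the fit (adjusted p = 0.0147) and with DESeq2 (adjusted p = 0.0141), and the ATF4 value of 0.64 ± 0.31 (adjusted p = 0.119) passed on leaving out control 7 (adjusted p = 0.0267).

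The second cluster on chromosome 11 holds Ccl2, Ccl7, Ccl11, Ccl12, Ccl8 and Ccl1. Ccl8 (chromosome 11, 82115185 to 82116799, plus strand), which in the mouse binds CCR8, differed in both directions. Ccl8 was measured at 16.8, 12.3, 13.2 and 15.5 CPM in control, 7.07, 5.96, 5.68, 4.44 and 3.75 in ATF3 and 11 and 9.81 in ATF4. CEBPG libraries gave 103, 100.2, 61.6 and 57.8 CPM and CHOP libraries 2.80, 6.56, 1.64, 1.55 and 2.0 CPM. The CEBPG libraries lay above all others, the ATF3 libraries below control, and the CHOP libraries lower still, except CHOP replicate 2, which lay among ATF3. The log2 fold change was -1.43 ± 0.33 (adjusted p = 0.0015) in ATF3, 2.47 ± 0.36 (adjusted p = 7.18e-06) in CEBPG and -2.29 ± 0.34 (adjusted p = 1.01e-05) in CHOP. CEBPG exceeded CHOP by 4.77 ± 0.36 (adjusted p = 3.73e-09). ATF3 was below CEBPG with a log2 fold change of -3.90 ± 0.34 (adjusted p = 4.82e-08), and ATF3 against CHOP, 0.87 ± 0.32 (adjusted p = 0.192), passed on leaving out CHOP 2 (adjusted p = 0.00232). Without CHOP replicate 2 the log2 fold change was -2.89 for CHOP against control and 5.36 for CEBPG against CHOP.

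Ccl7, a CCR2 ligand, was measured at 21.1, 14.4, 34.3 and 25 CPM in control, 7.71, 5.05, 7.85, 5.93 and 5.08 in ATF3 and 8.41 and 0.325 in ATF4. CEBPG libraries gave 94.1, 69.4, 98.6 and 54.3 CPM and CHOP libraries 17.9, 10.7, 35.1, 9.33 and 6.70 CPM. It fell in ATF3 (-1.91 ± 0.48, adjusted p = 0.00317) and rose in CEBPG (1.73 ± 0.51, adjusted p = 0.00998), with no overlap in either case. The fall in ATF4 (-2.45 ± 0.71, adjusted p = 0.0106) was lost on leaving out ATF4 3 (adjusted p = 0.119), and was -6.17 without ATF4 1. CEBPG was above ATF3 (ATF3 against CEBPG -3.64 ± 0.50, adjusted p = 1.31e-05) and CHOP (2.31 ± 0.47, adjusted p = 0.000796). Against CHOP, ATF3 gave -1.33 ± 0.45 (adjusted p = 0.147), which passed with only the groups compared in the fit (adjusted p = 0.0389).

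Ccl2, the main monocyte attractant and also a CCR2 ligand, was measured at 62.6, 58.5, 79.9 and 88.9 CPM in control, 40.6, 36.7, 30.6, 25.9 and 34.9 in ATF3 and 31 and 26.4 in ATF4. It fell in ATF3 (-1.10 ± 0.29, adjusted p = 0.00445) and in ATF4 (-1.34 ± 0.40, adjusted p = 0.0128), the latter lost on leaving out ATF4 1 or ATF4 3 (adjusted p = 0.0684 and 0.109). In CEBPG (109, 108, 123 and 89.9 CPM) it was above ATF3, with -1.67 ± 0.29 (adjusted p = 0.000195) for ATF3 against CEBPG, and above CHOP, with 1.08 ± 0.29 (adjusted p = 0.00661). Ccl12, the third CCR2 ligand of the cluster, overlapped between control and every knockout, with log2 fold changes from -0.27 in ATF3 to 0.21 in CEBPG. So of the 3 CCR2 ligands 2 fell in ATF3 and 1 did not pass. Ccl1, a CCR8 ligand of activated T cells, had 0 reads in control and was at 4.86, 2.47, 6.33 and 8.46 CPM in CEBPG and 0.63, 1.51, 1.73, 0.649 and 0.416 CPM in CHOP, at least 74.2-fold (adjusted p = 0.00046) and at least 13.2-fold higher (adjusted p = 0.00489). Ccl11, an eosinophil attractant, had 0 reads in all CHOP libraries and was at least 44.2-fold higher in CEBPG (adjusted p = 0.022), where 2 of the 4 libraries were at 0. Without CEBPG 9 the bound was 24.4-fold.

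**Figure D3:**
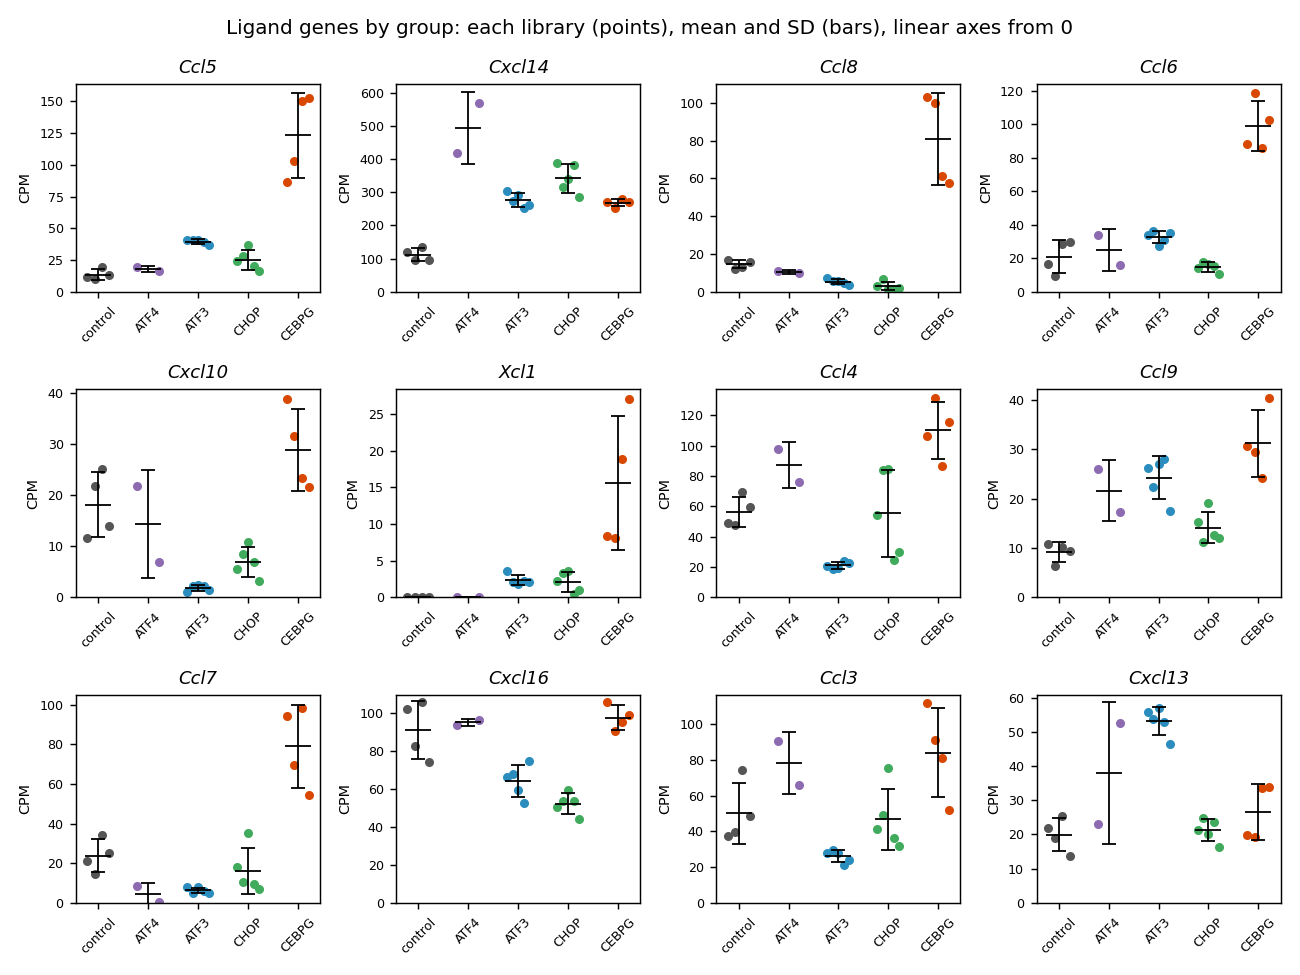
CPM of the 12 ligand genes named by rule in each library, 1 panel per gene with a linear axis from 0, by group, with points for libraries and bars for the mean and SD. Cxcl14 stands above control in all 4 knockouts, and Ccl8 and Ccl7 are highest in CEBPG and below control in ATF3.

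Cxcl9 and Cxcl10 encode interferon-induced ligands of CXCR3. Cxcl10 was measured at 11.7, 21.9, 25.2 and 13.9 CPM in control, 1.10, 2.17, 2.41, 2.18 and 1.33 in ATF3 and 21.9 and 6.89 in ATF4. CEBPG libraries gave 38.9, 31.5, 23.3 and 21.5 CPM and CHOP libraries 5.53, 8.44, 10.9, 6.88 and 3.12 CPM. Cxcl10 (chromosome 5, 92346638 to 92348889, minus strand) fell in ATF3 (-3.30 ± 0.39, adjusted p = 5.14e-07) and in CHOP (-1.38 ± 0.37, adjusted p = 0.00516), with no overlap with control, and did not pass in CEBPG (0.67 ± 0.39, adjusted p = 0.195) or ATF4 (-0.34 ± 0.48, adjusted p = 0.649). The ATF3 libraries were below CHOP (-1.93 ± 0.36, adjusted p = 0.00347) and below CEBPG (-3.97 ± 0.40, adjusted p = 2.72e-07), and CEBPG was above CHOP (2.04 ± 0.37, adjusted p = 0.000225). Cxcl10 shares 133 exon bases (5.9%) with Art3, which was not called except in CEBPG against CHOP, in the other direction (-2.64). Cxcl9 was measured at 10.5, 17.2, 6.97 and 19.9 CPM in control, 2.02, 2.07, 3.35, 0.837 and 2.89 in ATF3 and 9.02 and 2.11 in ATF4. CEBPG libraries gave 47.2, 26.6, 5.19 and 12.2 CPM and CHOP libraries 4.34, 13.9, 5.99, 0.0998 and 0.874 CPM. It fell in ATF3 (-2.61 ± 0.78, adjusted p = 0.0119). ATF3 was below CEBPG (-3.34 ± 0.79, adjusted p = 0.0038), lost in the fit lacking both CEBPG 6 and CEBPG 8 (adjusted p = 0.14). CEBPG was above CHOP (2.16 ± 0.76, adjusted p = 0.038), lost on leaving out any one of CEBPG 6, CEBPG 8, CHOP 1, CHOP 3, CHOP 4 and CHOP 5 (adjusted p = 0.0519 to 0.168), with only the groups compared in the fit (adjusted p = 0.105) and in the fit lacking both CEBPG 6 and CEBPG 8 (adjusted p = 0.567). Cxcl9 stood at -2.71 for ATF3 against CEBPG without CEBPG 6 and at 3.02 for CEBPG against CHOP without CHOP 2. Cxcl11, annotated as a polymorphic pseudogene, had reads in only 4 of the 20 libraries.

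Cxcl16, the membrane-anchored ligand of CXCR6 (chromosome 11, 70453983 to 70459984, minus strand), passed as higher in no comparison with control. Cxcl16 was measured at 102, 82.6, 106 and 74.1 CPM in control, 66.4, 67.9, 59.3, 52.7 and 74.8 in ATF3 and 93.8 and 96.4 in ATF4. CEBPG libraries gave 106, 90.2, 95.2 and 98.9 CPM and CHOP libraries 50.3, 53.8, 59.2, 53.8 and 43.9 CPM. It fell in ATF3 (-0.51 ± 0.13, adjusted p = 0.0038) and CHOP (-0.81 ± 0.13, adjusted p = 3.22e-05), with 1 ATF3 library just above the lowest control library, and the CEBPG and ATF4 libraries overlapped with control (0.10 ± 0.14, adjusted p = 0.636, and 0.06 ± 0.17, adjusted p = 0.833). CEBPG exceeded CHOP (0.90 ± 0.13, adjusted p = 1.60e-05), and ATF3 was below CEBPG (-0.60 ± 0.13, adjusted p = 0.00161). It shares 552 exon bases, 18.3% of its own, with Zmynd15 on the opposite strand, whose log2 fold change was -1.14 in ATF3, -1.31 in CHOP and -0.14 in CEBPG. Whether strand was used in counting is not stated, so reads of these 2 genes may not be told apart.

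Cxcl13, a B cell attractant that binds CXCR5, rose in ATF3 and was higher there than in the other knockouts of the batch. Cxcl13 was measured at 21.9, 19, 25.3 and 13.7 CPM in control, 55.7, 53.7, 57, 53 and 46.4 in ATF3 and 23.2 and 52.6 in ATF4. CEBPG libraries gave 19.9, 19.3, 33.7 and 33.9 CPM and CHOP libraries 21.2, 24.9, 20.2, 23.7 and 16.3 CPM. The ATF3 libraries lay above all control, CEBPG and CHOP libraries, and the log2 fold change against control was 1.41 ± 0.24 (adjusted p = 6.42e-05). It was higher in ATF3 than in CHOP (1.32 ± 0.22, adjusted p = 0.001) and than in CEBPG (0.99 ± 0.23, adjusted p = 0.00362), the latter lost in the fit lacking both CEBPG 6 and CEBPG 8 (adjusted p = 0.107). The rise in ATF4 (0.92 ± 0.29, adjusted p = 0.0181) was lost on leaving out any one of ATF4 3, control 5 and control 8 (adjusted p = 0.05 to 0.718) and with only the groups compared in the fit (adjusted p = 0.0708). In CEBPG against control it was 0.42 ± 0.25 (adjusted p = 0.2) and passed in the fit lacking both CEBPG 6 and CEBPG 8 (adjusted p = 0.0245). The CEBPG value against CHOP, 0.33 ± 0.23 (adjusted p = 0.315), likewise passed in the fit lacking both CEBPG 6 and CEBPG 8 (adjusted p = 0.0491).

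Xcl1, lymphotactin, made by natural killer and CD8 T cells, had 0 reads in all control and ATF4 libraries. It was measured at 3.64, 2.04, 1.77, 2.25 and 2.15 CPM in ATF3, 8.41, 8.09, 18.9 and 27.1 in CEBPG and 2.24, 3.26, 3.58, 0.399 and 0.998 in CHOP. Against the control floor it was at least 31.8-fold higher in ATF3 (adjusted p = 2.35e-05), at least 209.6-fold in CEBPG (adjusted p = 4.71e-07) and at least 28.1-fold in CHOP (adjusted p = 2.91e-05). CEBPG exceeded ATF3 (ATF3 against CEBPG -2.72 ± 0.59, adjusted p = 0.00264) and CHOP (2.89 ± 0.60, adjusted p = 0.00127). Xcl1 shares 98 exon bases (18.7%) with Gm20743, whose log2 fold change was 3.28 in ATF3, 2.59 in CEBPG and 2.85 in CHOP. Reads of these 2 genes may be shared.

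The neutrophil attractants Cxcl1, Cxcl2 and Cxcl3, ligands of CXCR2, differed from one another. Cxcl2 was measured at 0.72, 3.24, 2.13 and 0.536 CPM in control and 17.8, 41.9, 3.06 and 6.26 in CEBPG, where it rose by 3.41 ± 1.16 (adjusted p = 0.0255), and at 0.35, 0.973, 0, 0 and 0 in CHOP. That rise was lost on leaving out any one of CEBPG 8, control 4 and control 8 (adjusted p = 0.0671 to 0.148) and in the fit lacking both CEBPG 6 and CEBPG 8 (adjusted p = 0.453). The difference of ATF3 from CEBPG (-3.56 ± 1.05, adjusted p = 0.0174) was lost on leaving out CEBPG 8 (adjusted p = 0.121) and in the fit lacking both CEBPG 6 and CEBPG 8 (adjusted p = 0.457), and CEBPG exceeded CHOP by 5.94 ± 1.18 (adjusted p = 0.000598). That value was 5.02 without CEBPG 8 and 7.85 without CHOP 2. Cxcl3 was at 0 in control, ATF4 and CHOP and at 3.14, 5.17, 0 and 0 CPM in CEBPG, at least 27.9-fold above control (adjusted p = 0.0376) and at least 78.9-fold above CHOP (adjusted p = 0.0154). The first was lost on leaving out any one of CEBPG 6, CEBPG 8, control 4, control 5, control 7 and control 8 (adjusted p = 0.0565 to 0.078), with DESeq2 (adjusted p = 0.124) and in the fit lacking both CEBPG 6 and CEBPG 8 (adjusted p = 1). The second was lost with DESeq2 (adjusted p = 0.0547) and in the fit lacking both CEBPG 6 and CEBPG 8 (adjusted p = 1), and without CEBPG 8 its bound was 39.8-fold. Cxcl1 was at 0 in CEBPG and at 0.63, 0, 0.425 and 1.96 CPM in control, at least 19.8-fold lower in CEBPG (adjusted p = 0.0292). That call was lost on leaving out any one of CEBPG 8, CEBPG 9 and CEBPG 10 (adjusted p = 0.0522 to 0.0601), with DESeq2 (adjusted p = 0.0626) and in the fit lacking both CEBPG 6 and CEBPG 8 (adjusted p = 0.0939).

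Of the remaining ligands, Ccl24, an eosinophil attractant, was measured at 15.5, 2.64, 8.32 and 3.77 CPM in CEBPG and at most 0.893 CPM in control. Ccl24 rose in CEBPG against control (4.85 ± 1.64, adjusted p = 0.0249), a call lost on leaving out any one of CEBPG 6, control 4, control 5 and control 7 (adjusted p = 0.0614 to 0.0696) and in the fit lacking both CEBPG 6 and CEBPG 8 (adjusted p = 0.0683), and without control 8 the log2 fold change was 7.56. It was higher in CEBPG than in CHOP (4.32 ± 1.42, adjusted p = 0.0262), lost on leaving out any one of CEBPG 6, CHOP 1, CHOP 4 and CHOP 5 (adjusted p = 0.0512 to 0.0845) and in the fit lacking both CEBPG 6 and CEBPG 8 (adjusted p = 0.0898). Without CHOP 2 the other CHOP libraries had 0 reads and CEBPG was at least 206.9-fold higher. ATF3 was below CEBPG (-4.19 ± 1.41, adjusted p = 0.0368), lost on leaving out any one of ATF3 5, ATF3 6, ATF3 7, ATF3 8, ATF3 9, CEBPG 6 and CEBPG 9 (adjusted p = 0.0597 to 0.117) and in the fit lacking both CEBPG 6 and CEBPG 8 (adjusted p = 0.1254). Ccl17, a CCR4 ligand of dendritic cells, rose in CEBPG (3.27 ± 1.26, adjusted p = 0.0491), lost on leaving out any one of CEBPG 8, CEBPG 9, CEBPG 10, control 4, control 7 and control 8 (adjusted p = 0.0541 to 0.119). Without control 5 the value was 4.03. Cxcl17, a mucosal chemokine, rose in CEBPG (4.29 ± 1.49, adjusted p = 0.0294), lost on leaving out any one of CEBPG 6, control 4, control 7 and control 8 (adjusted p = 0.0505 to 0.091) and in the fit lacking both CEBPG 6 and CEBPG 8 (adjusted p = 0.0732). Without control 5 the value was 5.05. Cxcl12, the CXCR4 ligand of stromal cells, was measured at 12.6, 22.4, 7.89 and 24.1 CPM in CEBPG and 18.6, 26.9, 32.2, 47.8 and 33.2 in CHOP and passed only between these (-0.92 ± 0.32, adjusted p = 0.0357), lost on leaving out any one of CEBPG 6, CEBPG 9, CHOP 3, CHOP 4 and CHOP 5 (adjusted p = 0.0565 to 0.122), with only the groups compared in the fit (adjusted p = 0.0896) and in the fit lacking both CEBPG 6 and CEBPG 8 (adjusted p = 0.101). Ccl22, Ccl25, Ccl27a and Ccl28 passed in no comparison. Ccl27a has a copy, Gm20878, with 98.6% identity over 766 bases, so its counts are uncertain.

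Within the batch that ATF3, CEBPG and CHOP share, the CEBPG group had the higher value for nearly every gene called. Between ATF3 and CEBPG 1 gene was higher in ATF3 and 20 lower (all genes 20.4% called, 10.1% higher and 10.2% lower), the 20 being 14 ligands and 6 receptors. Between CEBPG and CHOP 27 were higher in CEBPG (16 ligands and 11 receptors) and 3 lower (2 ligands and 1 atypical receptor), where 26.7% of all genes were called (13.5% higher, 13.2% lower). Between ATF3 and CHOP 3 were higher (Ccl6, Cxcl13 and Ccr2) and 3 lower (Ccl4, Cxcl10 and Cxcr3) against a background of 2.26% (1.51% and 0.756%). With only these 2 groups in the fit, 8 were higher and 6 lower, the same 3 and 3 among them, where 7.96% of all genes were called. The median log2 fold change of ATF3 against CEBPG was -1.67 for ligands and -1.50 for receptors beside -0.004 over all genes (-1.69 and -1.50 with bounds). For CEBPG against CHOP it was 2.04 and 2.00 beside -0.03 (1.08 and 1.80 with bounds). Without CEBPG replicates 6 and 8, 16 genes were lower in ATF3 than in CEBPG, all among the 20, and 0 higher, where 14.3% of all genes were called. In that fit 23 were higher in CEBPG than in CHOP, 21 of them among the 27, and 0 lower, where 20.8% of all genes were called. Of the 16 receptors, 11 were higher in CEBPG than in CHOP and 6 higher than in ATF3.

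**Figure D4:**
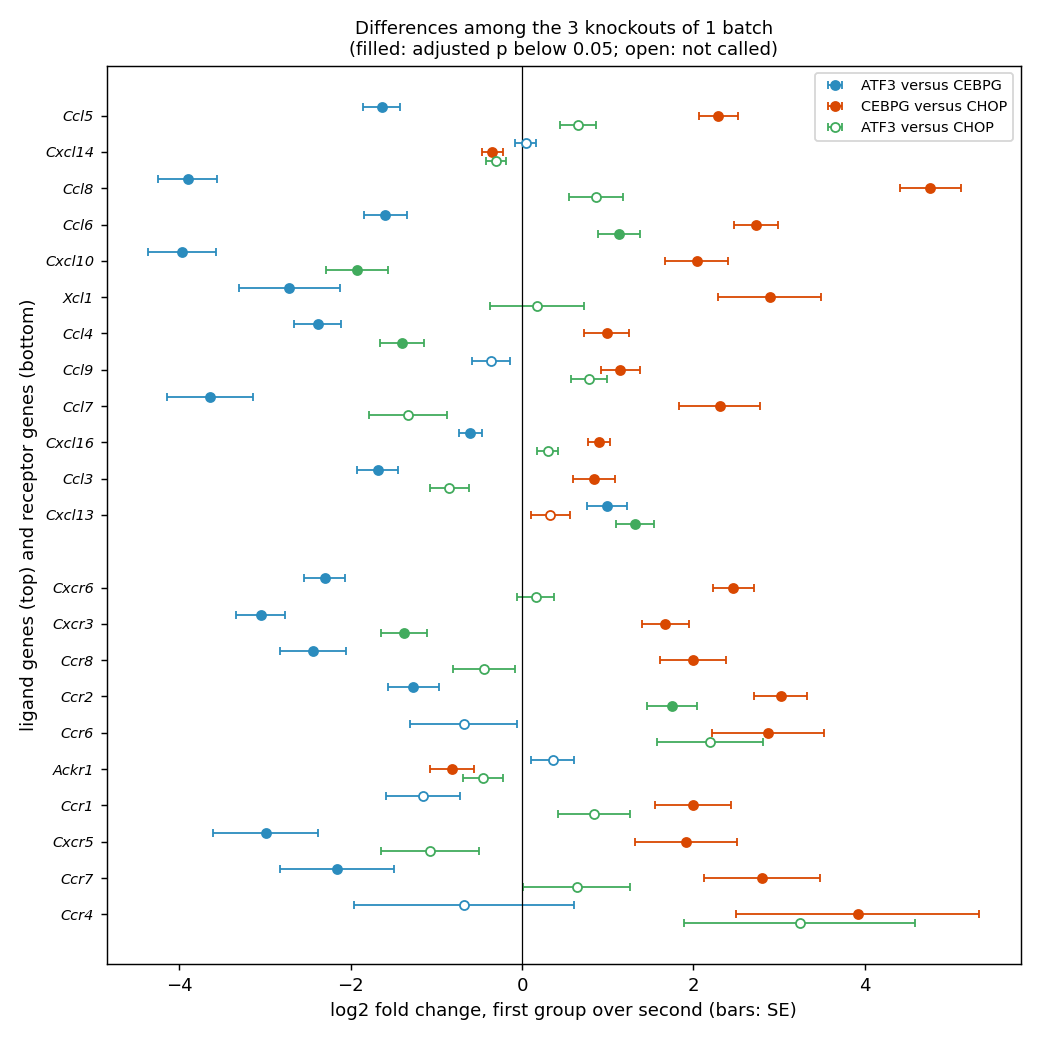
Log2 fold change ± SE of 12 ligands and 10 receptors (Ccr3, at 0 in CHOP, is not drawn) for ATF3 against CEBPG, CEBPG against CHOP and ATF3 against CHOP, with filled points at an adjusted p under 0.05. Most ATF3 against CEBPG points lie below 0 and most CEBPG against CHOP points above it, at -3.90 and 4.77 for Ccl8.

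Markers of the cells that carry or make these proteins moved with the groups. Summed over 18 T and natural killer cell genes the level was 15.2 CPM in control, 346 in ATF3, 45.9 in ATF4, 2209.5 in CEBPG and 416 in CHOP (control libraries 6.57 to 26, CEBPG libraries 1712 to 2752), and 18 of 18 were called higher in ATF3 and in CEBPG, 17 in CHOP and 10 in ATF4. Klrb1c was at 0 in all control libraries. Over 8 gamma delta T cell genes it was 13.5 CPM in control, 154 in ATF3, 30.2 in ATF4, 218 in CEBPG and 33.3 in CHOP (control 7.61 to 17.4, ATF3 137 to 162, CEBPG 187 to 229), with Cd163l1, Il17a and Il18r1 at 0 in control. The receptor sums followed the same order of groups as the T and natural killer cell sums in batch 3 for CEBPG against the other 2, but not for ATF3 and CHOP, where the receptor sum was higher in ATF3. Over 12 monocyte and neutrophil genes the sum was 895 CPM in control, 869 in ATF3, 651 in ATF4, 2234 in CEBPG and 378 in CHOP (control 632 to 1027, CEBPG 1996 to 2440.3, CHOP 285 to 504), with Retnlg and Mmp8 at 0 in control. Over 15 microglia genes it was 5056 CPM in control, 5561 in ATF3, 6300.4 in ATF4, 6601 in CEBPG and 4344 in CHOP (control 4168 to 6340.2, CEBPG 5657 to 7160.3), over 7 dendritic cell genes 19.2 CPM in control, 50.9 in ATF3, 17.5 in ATF4, 157 in CEBPG and 44.8 in CHOP (control 12.6 to 26.7, CEBPG 129 to 175). Of the 15 microglia genes, 9 were called higher and 0 lower in CEBPG against control (60% of the list, all genes 33.4%). Higher and lower were 4 and 0 in ATF3, 5 and 1 in ATF4 and 1 and 3 in CHOP. Between CEBPG and CHOP, 11 were higher in CEBPG and 0 lower (73.3% of the list, all genes 26.7%). Of the 12 monocyte and neutrophil genes, 2 were called higher and 0 lower in ATF3 and 0 and 0 in ATF4. In CEBPG 9 were higher and 1 lower, and in CHOP 1 and 5. These calls were 16.7%, 0%, 83.3% and 50% of the list (all genes 33.4%, 31.3%, 33.4% and 33.5%). The median log2 fold changes were 1.77, -0.25, 3.73 and -0.74 (ATF3, ATF4, CEBPG, CHOP). The part of any of these cell types in the chemokine and receptor differences was not tested.

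**Figure D5:**
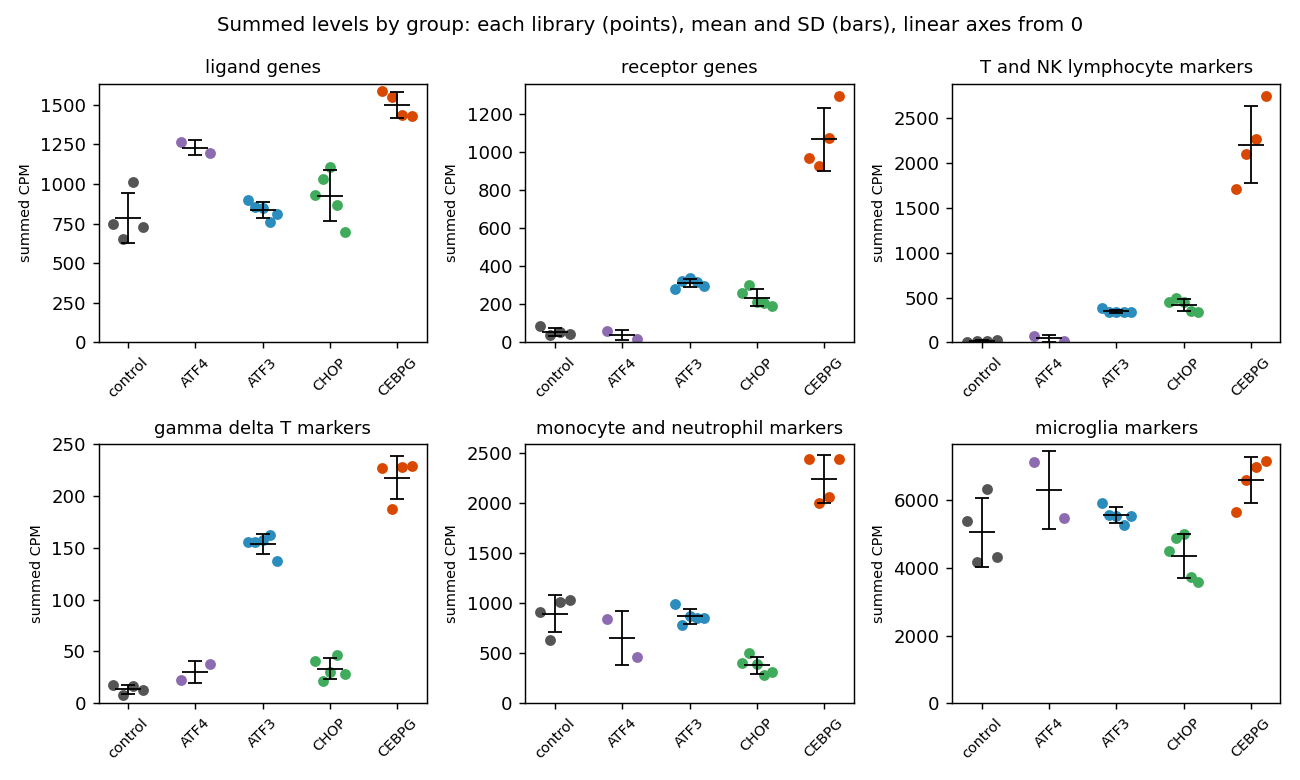
Summed CPM per library of the 29 ligands, the 16 receptors and 4 marker lists, by group, with points for libraries. The receptor sum is 930.3 to 1298 CPM in CEBPG and 37.1 to 84.4 CPM in control, beside 1712 to 2752 and 6.57 to 26 CPM for the T and natural killer cell markers. The summed microglia markers overlap between the 2 groups, although 9 of the 15 genes were called higher in CEBPG and 0 lower.

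The signalling partners of the receptors were taken as a list of 34 genes (G protein subunits, their regulators, Rac activators, kinases and arrestins). Called higher and lower were 17 and 1 in ATF3, 8 and 5 in ATF4, 25 and 1 in CEBPG and 14 and 3 in CHOP, with medians of 0.52, 0.10, 1.07 and 0.38, beside 0.06, 0, 0.06 and 0.01 over all genes. These calls were 52.9%, 38.2%, 76.5% and 50% of the list, against 33.4%, 31.3%, 33.4% and 33.5% of all genes, so the ATF4 share was near its background. In the batch, 17 were lower in ATF3 than in CEBPG and 23 higher in CEBPG than in CHOP, with 0 in the other direction, while ATF3 and CHOP differed in 1 and 1. In CEBPG against control, Rac2, the Rac GTPase of blood cells, rose by 3.40 ± 0.23 (adjusted p = 4.98e-11), Dock2, its exchange factor in lymphocytes, by 2.56 ± 0.21 (adjusted p = 9.67e-10), and Rgs1, which damps chemokine receptor signalling, by 3.46 ± 0.31 (adjusted p = 4.12e-09). Gnb1, a G protein beta subunit found in many cell types, was the gene called lower in that comparison (-2.40 ± 0.15, adjusted p = 1.03e-11) and was also lower in ATF3 (-2.57 ± 0.14, adjusted p = 1.30e-12), ATF4 (-2.57 ± 0.19, adjusted p = 3.60e-09) and CHOP (-2.11 ± 0.13, adjusted p = 3.90e-11). Its mean was 1976 CPM in control and 332 to 458 CPM in the knockouts. The rod marker sum differed in the same direction, at 33781 CPM in control against 2735 to 5562 CPM, and a link was not tested. Of 14 adhesion and extravasation genes, 5 were higher and 1 lower in ATF3, 1 and 4 in ATF4, 8 and 0 in CEBPG and 1 and 2 in CHOP. Against the same backgrounds, the shares of 42.9% in ATF3 and 35.7% in ATF4 were near, 57.1% in CEBPG was above and 21.4% in CHOP was below. Itgal, the alpha chain of the leukocyte integrin LFA-1, rose by 1.56 ± 0.26 (adjusted p = 6.11e-05) in ATF3, 3.63 ± 0.29 (adjusted p = 7.72e-10) in CEBPG and 1.37 ± 0.26 (adjusted p = 0.000245) in CHOP.

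The inducers of chemokine genes were taken as 21 genes of the NF-kB and interferon pathways and cytokines. Called higher and lower were 2 and 8 in ATF3, 1 and 7 in ATF4, 11 and 2 in CEBPG and 2 and 8 in CHOP, with medians of -0.46, -0.57, 0.51 and -0.47, beside 0.06, 0, 0.06 and 0.01 over all genes. The shares called, 47.6%, 38.1%, 61.9% and 47.6%, stood against 33.4%, 31.3%, 33.4% and 33.5% of all genes, and the ATF4 share was near its background. Irf1, an interferon-induced activator of Cxcl10, fell in ATF3 (-1.10 ± 0.13, adjusted p = 4.84e-07), ATF4 (-1.83 ± 0.18, adjusted p = 1.34e-07) and CHOP (-1.07 ± 0.13, adjusted p = 6.00e-07). Within the batch it was lower in ATF3 than in CEBPG (-1.41 ± 0.13, adjusted p = 6.90e-08) and higher in CEBPG than in CHOP (1.39 ± 0.13, adjusted p = 5.47e-08). Tnfaip3, the NF-kB-induced inhibitor A20, fell in all 4, with a log2 fold change of -3.18 ± 0.25 (adjusted p = 9.76e-10) in ATF3 and -1.75 ± 0.26 (adjusted p = 1.04e-05) in CEBPG. Nfkb1 went the other way and was called higher in all 4. Its log2 fold change was 0.92 ± 0.25 in ATF3, 1.47 ± 0.30 in ATF4, 2.11 ± 0.26 in CEBPG and 1.04 ± 0.25 in CHOP. Ifng, the T and natural killer cell interferon, rose in CEBPG (6.39 ± 1.01, adjusted p = 2.54e-05) and CHOP (3.68 ± 0.93, adjusted p = 0.00336). Between ATF3 and CEBPG 17 of the 21 were lower in ATF3 and 0 higher, and between CEBPG and CHOP 16 were higher and 0 lower.

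Of 12 other genes of the chemokine system, named outside the rule, 2 were higher and 1 lower in ATF3, 2 and 0 in ATF4, 5 and 0 in CEBPG and 2 and 1 in CHOP. The shares of 25%, 16.7% and 25% in ATF3, ATF4 and CHOP lay below the backgrounds of 33.4%, 31.3% and 33.5%, and 41.7% in CEBPG stood beside 33.4%. Cx3cl1, the neuronal ligand of the microglial receptor CX3CR1, rose in ATF3 (1.06 ± 0.18, adjusted p = 4.66e-05), ATF4 (1.16 ± 0.21, adjusted p = 0.000216) and CHOP (1.26 ± 0.18, adjusted p = 5.02e-06), and was lower in CEBPG than in CHOP (-0.99 ± 0.17, adjusted p = 0.000182). Cd74, the receptor of MIF and the invariant chain of antigen presentation, fell in ATF3 (-1.74 ± 0.20, adjusted p = 3.58e-07) and CHOP (-1.93 ± 0.20, adjusted p = 7.65e-08). Pf4, a platelet and macrophage CXC chemokine, rose in CEBPG (3.66 ± 0.85, adjusted p = 0.00159).

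In the authors' deposited table of differential expression against control, all 49 genes were listed, and 14 were called for ATF3 (11 higher, 3 lower), 2 for ATF4 (1 and 1), 16 for CEBPG (16 and 0) and 7 for CHOP (7 and 0). The authors' deposited table and the fit described here shared 13, 2, 15 and 7 of these calls, out of 22, 10, 27 and 14 in the fit, and no gene was called in opposite directions. Of the calls in the fit, 5 in ATF3, 2 in CEBPG and 2 in CHOP had the opposite sign in the authors' deposited table, where none of them was called. In ATF3 these calls included Ccl8 (1.17), Cxcl9 (2.499), Ccl9 (-1.26) and Ccr1 (-0.31), as log fold changes of the authors' deposited table. In CHOP they were Ccl8 (0.49) and Ccl9 (-1.98), and in CEBPG Ccl3 (-0.92) and Ccl4 (-0.44). The falls of Ccl8 in ATF3 and CHOP described above were thus not seen in the authors' deposited table. The model behind that table is not stated.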

How the data were processed

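RNA of sorted retinal ganglion cell samples was sequenced in 21 libraries, of which 20 carry consistent labels. The deposited table holds raw read counts per gene, made with STAR, Picard and HTSeq on mm10 per the submitters' processing notes, and their versions and the strand setting are not stated. A table of differential expression deposited by the authors gives log2 or other log fold changes, the base not being stated, with p-values, and its calls and some of its log fold changes are given. A deposited sample sheet gave sex, age and batch, and its other 43 columns were not used.

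Genes were kept by filterByExpr (minimum count 10) and tested with edgeR 4.0.16 in R 4.3.3 by the quasi-likelihood test on all 20 libraries (5 groups, 15 residual degrees of freedom, TMM scaling), with Benjamini-Hochberg adjustment over 16797 genes at 0.05. The SE of a log2 fold change was taken from the test statistic. Fold changes against a group with 0 reads are bounds from a floor of 3 reads over that group, and cover counting error only. Exon lengths and overlaps came from GENCODE for GRCm38. The test was checked on simulated counts. Over the 7 comparisons it recovered 33% to 53% of changes of log2 1 and 61% to 79% of changes of log2 2. False calls were 1.77% (ATF3 against control) to 6.52% (ATF3 against CEBPG) of all calls. A gene that did not pass may therefore still differ. Alternatives were RLE scaling, no filter, DESeq2 1.42.0, fits of only the 2 groups compared, a replicate block, each library left out, and, chosen after seeing the data, CEBPG without replicates 6 and 8.

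Per-library values are given for up to 12 ligands and 12 receptors with the smallest adjusted p, called at least once and with a mean of at least 1 CPM in a group, and other called genes more briefly. From the other lists up to 4 genes per direction were named. The members, lists and comparisons were chosen with earlier results of these data known. Counts and sums cover all 49 genes, and the values of 1 of them are not reported here. No 2 libraries of a group agreed within sampling noise.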

Additional observations from a re-analysis of the deposited data

Results flagged for a closer look

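In 7 cases 1 library lay far from the others of its group by Dixon's criterion at the 95% level, out of 95 groups of values looked at. For normally spread values chance alone gives about 1 in 20. That rate does not hold where most libraries of a group are at or near 0, as for Ccr6 in control, Ccr4 in CHOP and Ccr3 in ATF3. CHOP replicate 2 was the highest of its group for Ccl8 (6.56 CPM, the others 1.55 to 2.80 CPM). ATF3 replicate 5 was highest for Xcl1 (3.64 CPM, next 2.25 CPM), ATF3 replicate 7 for Ccr6 (8.28 CPM, next 5.76 CPM) and ATF3 replicate 9 for Ccr3 (1.95 CPM, next 0.118 CPM). Control replicate 4 was the only control library with reads of Ccr6 (0.450 CPM). CEBPG replicate 6 had 0 CPM of Ccr4, where the other 3 had 4.43 to 4.87 CPM, and CHOP replicate 4 had 1.05 CPM of Ccr4, next to 0.0832 CPM.

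Ligands called in opposite directions against control in 2 knockouts of the same batch and sex were Ccl3, Ccl4, Ccl7 and Ccl8, lower in ATF3 and higher in CEBPG, and Ccl8 also between CHOP (lower) and CEBPG (higher). The direct test of ATF3 against CEBPG gave log2 fold changes of -1.69 (SE 0.24, adjusted p = 2.36e-05) for Ccl3, -2.39 (SE 0.27, adjusted p = 1.26e-06) for Ccl4, -3.64 (SE 0.50, adjusted p = 1.31e-05) for Ccl7 and -3.90 (SE 0.34, adjusted p = 4.82e-08) for Ccl8. CEBPG against CHOP gave 4.77 (SE 0.36, adjusted p = 3.73e-09) for Ccl8. The library ranges of ATF3 and CEBPG did not overlap for any of the 4 genes.

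The library with conflicting labels (33665965 counted reads, male, batch 4) was above all 20 others for 8 of the 29 ligands. It held 673 CPM of Ccl12, 395 CPM of Ccl4, 372 CPM of Ccl3, 168 CPM of Ccl2, 117 CPM of Cxcl16, 81 CPM of Ccl9, 52.1 CPM of Cxcl12 and 39.8 CPM of Cxcl10. Its ligand sum was 2153 CPM, and its sum over the 20 receptors, the atypical ones included, was 204 CPM. The receptor sums given for the groups leave out the atypical receptors, so this value cannot be set beside them. Above the highest control library were 17 of the 29 ligands and 9 of the 20 receptors, the atypical ones included. The matching shares of all genes were not counted, so these counts cannot be read as particular to chemokine genes.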

How the results depend on the processing

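Of 127 comparisons of a gene given by name that passed the test, 126 did so with RLE scaling, 127 with no low-count filter and 123 with DESeq2, in the same direction. In the fits of only the 2 groups compared, 105 passed, 10 did not, and the others had no test there. Of those that involve CEBPG, 55 passed and 22 did not without CEBPG replicates 6 and 8. With only the 2 groups compared in the fit, the counts moved from 7 to 3 (ATF4 against control, higher), from 1 to 0 (CEBPG against control, lower), from 3 to 8 and from 3 to 6 (ATF3 against CHOP, higher and lower) and from 3 to 0 (CEBPG against CHOP, lower), where 28.6%, 26.2%, 7.96% and 22.3% of all genes were called in these 4 comparisons. With DESeq2 they moved to 0 for CEBPG against control, lower, and to 5 for ATF3 against CHOP, higher, beside 36.5% and 4.11% of all genes called. Without CEBPG replicates 6 and 8 they were 0 for CEBPG against control, lower, 0 for ATF3 against CEBPG, higher, and 0 for CEBPG against CHOP, lower, and Cxcl14 in ATF3 against CEBPG went to -0.00276.

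Leaving out each library in turn, 100 of the 127 kept the call and 27 lost it at least once, and none changed sign. Counts ranged from 4 to 9 (ATF4 against control, higher), 0 to 1 (CEBPG against control, lower), 3 to 7 (CHOP against control, lower, 7 without CHOP replicate 2), 3 to 5 (ATF3 against CHOP, higher, 5 without CHOP replicate 3), 1 to 2 (ATF3 against CEBPG, higher) and 0 to 3 (CEBPG against CHOP, lower). Uncalled log2 fold changes that crossed 0 ranged as follows: in CHOP against control Ccl3 -0.35 to 0.14, Ccl4 -0.25 to 0.13, Cxcl13 -0.089 to 0.21 and Ccr7 -0.71 to 0.13, in ATF4 against control Ccl6 -0.39 to 0.67, Cxcl10 -1.39 to 0.27, Cxcl16 -0.070 to 0.13 and Cxcr5 -1.64 to 0.12, in ATF3 against control Ccr7 -0.070 to 0.79 and Cxcr5 -0.60 to 0.11, Cxcl16 in CEBPG against control -0.023 to 0.17 and Xcl1 in ATF3 against CHOP -0.083 to 0.47.

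Replicate numbers are shared between groups, but libraries of 1 number did not deviate together (correlations from -0.05 to 0.03), so the numbers were not taken to pair them. With the replicate number as a block, which leaves fewer residual degrees of freedom, 79 of the 127 passed. The counts moved to 1 higher and 6 lower (ATF4), 0 lower (CEBPG), 7 higher and 6 lower (CHOP), each against control, to 1 higher and 0 lower (ATF3 against CHOP), and to 12 higher and 0 lower (CEBPG against CHOP). The share of all genes called fell with them, from 31.3% to 7.87% (ATF4), 33.4% to 18.3% (CEBPG) and 33.5% to 16.2% (CHOP) against control, from 2.26% to 0.0655% for ATF3 against CHOP and from 26.7% to 3.08% for CEBPG against CHOP. Uncalled values that changed sign under the block were Ccr7 -0.080 and Cxcr5 0.34 in ATF3, Ccl4 -0.54, Ccl5 -0.18 and Cxcl16 -0.17 in ATF4, Cxcl13 -0.072 in CHOP, and Cxcl14 -0.024 and Ccr4 0.64 in ATF3 against CEBPG. The cause of these moves was not tested. Depth limits what can be said of genes with 0 reads in a group, whose fold changes are lower bounds.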
